A study of Mus musculus with 6 samples.

Results

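The S100 calcium-binding proteins described here are 10 genes, S100a3, S100a4, S100a6, S100a8, S100a9, S100a10, S100a11, S100a13, S100a14 and S100a16, chosen by symbol, and read by 11 probes of the 45281 on the array (10 of 21946 named genes). They were measured in back-skin epidermis of mouse embryos at stage E17.5, in 3 mutants of a Harlequin Ichthyosis model and 3 wild types, all of the C57BL6 strain. Harlequin Ichthyosis is a severe inherited disorder in which the skin is born as thick plates and the barrier fails, and the comparison asks what sets mutant epidermis apart from wild type shortly before birth. Neither the mutated gene nor the allele is named in the labels. They describe epidermis lifted off the dermis with 5 mM EDTA, and total RNA hybridised to Illumina bead arrays, with the 6 samples given as biological replicates numbered 1 to 3 in each group.

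S100 proteins are small calcium sensors that mostly work as dimers: calcium opens a binding face with which they grip annexins, cytoskeletal proteins and other partners. Most of their genes lie together with those of the cornified envelope in a stretch of the genome known as the epidermal differentiation complex. S100a8 and S100a9 form calprotectin, an alarmin that is stored in neutrophils, that keratinocytes make when skin is wounded or inflamed, and that withholds metals from microbes and signals through Toll-like receptor 4. The other members here are mostly housekeeping or differentiation genes of epithelia and of connective tissue.

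Values are log2 of background-corrected, quantile-normalized probe intensity, and every difference is mutant minus wild type on that scale. A probe counted as detected on an array at a detection p under 0.05, and was kept for testing when detected on at least 3 arrays, which left 18358 probes. All 11 probes of the 10 genes were kept, 9 of them detected on all 6 arrays. Differences were tested with limma over all kept probes with Benjamini-Hochberg adjustment, the threshold being an adjusted p of 0.05. Levels of different probes cannot be compared.

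Mean raw intensity was 390 to 463 on the mutant arrays and 260 to 398 on the wild-type arrays, and 17159 to 18422 probes were detected. Wild-type array 3 stood apart: its Pearson's r with the other arrays over kept probes, which are not independent, was 0.836 to 0.891, against 0.965 to 0.990 among the other 5. Sample titles carry a prefix whose meaning the labels do not give. Arrays 1 and 2 of each group are titled bo20 and array 3 of each is titled bo12, so within bo12 the comparison is of 1 array with 1, and its wild-type array is the one that stood apart. All 6 keratinocyte markers listed, among them Krt5 and Krt10, were detected on every array.

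The 2 alarmin genes lie next to each other in the complex, between S100a7a and Pglyrp4. Since their values moved together over the 6 arrays, the 250 bases before their transcription starts are shown with the same stretch of S100a11, a member whose groups overlapped. The sequences are from RefSeq, build GRCm38.p6, and read 5′ to 3′ on the strand of the gene: S100a8 at chr3:90668821-90669070 on the plus strand, S100a9 at chr3:90695722-90695971 on the minus strand and S100a11 at chr3:93520246-93520495 on the plus strand. Capitals mark the motifs described after them.
S100a8: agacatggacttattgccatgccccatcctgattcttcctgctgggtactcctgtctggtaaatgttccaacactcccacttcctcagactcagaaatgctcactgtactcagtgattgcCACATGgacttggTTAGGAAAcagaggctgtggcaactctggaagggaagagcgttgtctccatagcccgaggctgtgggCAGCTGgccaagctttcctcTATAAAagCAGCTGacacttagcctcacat
S100a9: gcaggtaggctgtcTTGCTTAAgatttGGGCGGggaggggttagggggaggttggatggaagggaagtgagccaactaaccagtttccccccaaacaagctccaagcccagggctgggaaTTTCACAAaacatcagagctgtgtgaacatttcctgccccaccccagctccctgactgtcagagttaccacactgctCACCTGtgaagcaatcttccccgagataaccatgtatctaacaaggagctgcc
S100a11: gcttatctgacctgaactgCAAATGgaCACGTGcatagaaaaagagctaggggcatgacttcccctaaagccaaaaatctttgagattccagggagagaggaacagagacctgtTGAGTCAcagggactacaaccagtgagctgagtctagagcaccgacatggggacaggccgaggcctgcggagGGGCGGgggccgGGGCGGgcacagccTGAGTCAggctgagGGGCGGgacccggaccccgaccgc

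The motifs searched, on both strands, were the TATA box (TATAAA), and the core letters of sites for AP-1 (TGANTCA), C/EBP (TTNNGNAA), STAT (TTCNNNGAA), NF-kB (GGGNNN followed by TTCC), the GC box (GGGCGG) and the E-box (CANNTG). The S100a8 window held a TATA box 30 to 25 bases before the start, C/EBP letters at 117 to 110, and 3 E-boxes. The S100a9 window held C/EBP letters at 236 to 229 and at 130 to 123, a GC box and an E-box. The S100a11 window held 2 AP-1 matches, at 136 to 130 and 38 to 32, with 3 GC boxes and 2 E-boxes. In none of the 3 windows did matches to different motifs overlap. C/EBP letters occurred in 36.8% of all 32851 promoter windows in the table, AP-1 letters in 6.75%, the TATA box in 12.4%, the GC box in 32.7% and the E-box in 66.2%. STAT letters (7.02% of all windows) and NF-kB letters (4.65%) were in none of the 12 windows of the 8 members the table holds. C/EBP letters were in 4 of these 12, of S100a3, S100a8 and S100a9, and AP-1 letters in 2, of S100a11 and S100a16. A match is a run of letters and not evidence of binding.

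S100a8, the smaller chain of calprotectin, read 11.85, 11.59 and 11.29 on mutant arrays 1 to 3, against 9.55, 9.22 and 7.21 on wild-type arrays 1 to 3. Every mutant value lay above every wild-type value, and wild-type array 3 was the lowest by a wide margin. In raw intensity the probe (ILMN_2710905) read 4724, 4446 and 2929 in mutants, against 504, 782 and 149 in wild type. In rank among all probes of its own array, which no scaling between arrays can alter, it stood at percentiles 98.5, 98.2 and 97.7 in mutants and 93.3, 92.0 and 81.7 in wild type. The groups were thus apart before any normalization too.

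The means of S100a8 were 11.58 ± 0.28 in mutants and 8.66 ± 1.26 in wild type (SD, n = 3 each), a difference of 2.92 (SE 0.59), or 7.55-fold (95% interval 2.87 to 19.9). Ordered by difference it stood at rank 5 of the 18358 kept probes, and ordered by p at rank 96, with limma adjusted p = 0.312. The SD was larger in wild type than in mutants, through wild-type array 3.

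S100a9, the larger chain, read 10.02, 10.21 and 9.21 in mutants, against 8.26, 7.69 and 5.79 in wild type. Again the groups did not overlap, mutant array 3 was the lowest of the mutants and wild-type array 3 the lowest of all. Raw intensity of its probe (ILMN_2803674) was 1451, 1770 and 748 in mutants and 249.7, 319 and 97.0 in wild type. Its mean was 9.82 ± 0.53 in mutants and 7.25 ± 1.29 in wild type (SD, n = 3 each). The difference was 2.57 (SE 0.63), or 5.94-fold (2.11 to 16.7). S100a9 stood at rank 10 of 18358 by difference and at rank 191 by p, with limma adjusted p = 0.454. Neither alarmin passed with all 6 arrays. No kept probe did (0% of 18358, limma, with 5.87% at an unadjusted p under 0.05, and with unadjusted p = 0.00164 for S100a8 and 0.00474 for S100a9). Of the 11 S100 probes, these 2 had groups that did not overlap, both with mutants above, where 13.3% of all kept probes did not overlap 5.63% had all mutants above and 7.68% all mutants below.

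**Figure D1:**
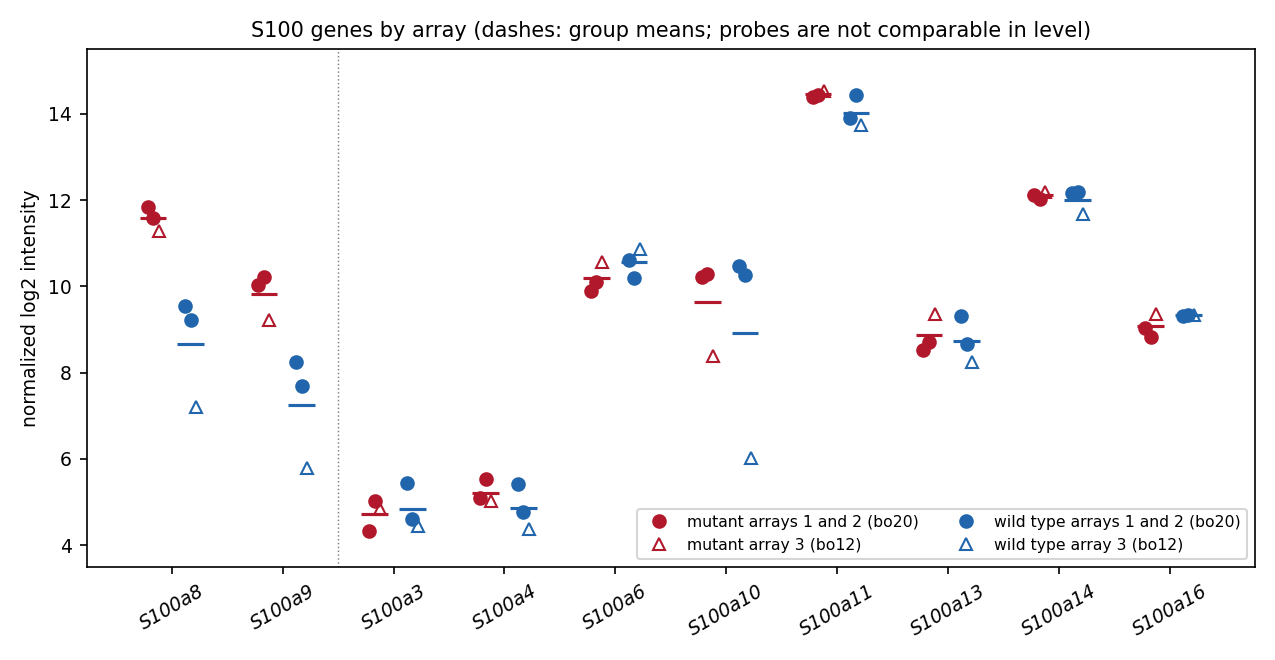
Normalized log2 intensity (vertical axis) of the 10 S100 genes on each array, mutants in red left of wild types in blue, with open triangles for array 3 of each group and dashes for group means (n = 3 each). All mutant values of S100a8 (11.29 to 11.85) lie above all its wild-type values (7.21 to 9.55), and likewise for S100a9, while the groups of the other 8 genes overlap.

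Without wild-type array 3, with the detection filter applied anew to the other 5 arrays, S100a8 was 4.55-fold higher, a difference of 2.18 (SE 0.23, limma adjusted p = 0.0320), and rose past the threshold as 1 of 33 probes that did so in that direction (0.185% of 17808, with 0.0898% lower). S100a9 was 3.52-fold higher there, a difference of 1.81 (SE 0.33), and did not pass (limma adjusted p = 0.140). Both differences and both errors were smaller once the lowest wild-type array was left out.

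Within bo20 alone, where the mutants stand at 11.85 and 11.59 for S100a8 against 9.55 and 9.22 in wild type, the difference was 2.34, or 5.05-fold, and for S100a9 it was 2.14, or 4.42-fold. In a limma fit of those 4 arrays, a setting added after the data were seen, both rose past the threshold (adjusted p = 0.00746 and 0.0137), as did 0.381% of kept probes. Within bo12, with 1 array on each side and no test, the differences were 4.08 and 3.42, with wild-type array 3 on the lower side. With all 6 arrays and the title prefix as a block, both genes rose (limma adjusted p = 0.0414 for each, next to 0.158% of kept probes higher and 0.103% lower), and so they did with array weights (adjusted p = 0.00726 and 0.0297, 0.398% of kept probes), where the weight of wild-type array 3 was 0.112. The direction was the same in each prefix. The effect on S100a8 was larger within bo12 by 1.74 (limma interaction adjusted p = 0.0200), a test that 10.1% of kept probes passed, and that on S100a9 by 1.28, which did not pass (0.0943). The spread in that test comes from the bo20 arrays alone, and the single bo12 arrays are assumed to vary like them. Prefix and the array that stood apart cannot be told apart here.

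The remaining 8 members gave no such separation: all 9 of their probes had overlapping groups, where 13.3% of all kept probes did not overlap. In the fit of all 6 arrays 0 of the 8 genes passed, as did 0 of the 18358 kept probes. In the up to 18 alternative fits run for each, 0 of the 8 genes passed, where 0 to 129 of all probes did. Their differences had a median of 0.11 and ran from -0.37 to 0.71, with 5 above 0 and 3 below, next to a median of -0.06 over the 11354 kept genes, of which 44.4% were above 0. Without wild-type array 3 their median was -0.17, with 2 above 0 and 6 below. A p that misses the threshold does not show that these genes were equal in the groups, so their intervals are given.

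S100a11, a partner of annexin A1 that transglutaminases cross-link into the cornified envelope, read 14.40, 14.43 and 14.52 in mutants, against 13.91, 14.45 and 13.75 in wild type. Wild-type array 2 lay among the mutants and the other wild types below them. Raw intensities of 21277, 24697 and 24470 in mutants and 13114, 22691 and 9220 in wild type place this probe near the top of the array range (the brightest probe of each array reads 20372 to 28485), where a change can be compressed. The difference was 0.42 (SE 0.24, limma adjusted p = 0.791), 1.34-fold with an interval of 0.897 to 1.99.

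S100a10, or p11, has lost calcium binding and forms a tetramer with annexin A2 under the plasma membrane. It read 10.23, 10.29 and 8.38 in mutants, against 10.48, 10.27 and 6.02 in wild type. The 4 bo20 arrays lay within a narrow band and both bo12 arrays lay far below it, and of these the wild type was the lower by 2.37. The difference of 0.71 (SE 1.21, limma adjusted p = 0.859, 95% interval -2.13 to 3.56) turned to -0.73 without wild-type array 3 and was -0.12 within bo20. The effects in the prefixes differed by 2.48 (limma interaction adjusted p = 0.00220). Prickle3 and Dsp, which encodes the desmosome protein desmoplakin, both chosen after their values were seen, followed S100a10 most closely of all kept genes with an SD of at least 0.5 (Pearson's r 0.9999 and 0.9995 over the 6 arrays). With the 4 bo20 arrays so close together, these r values rest mainly on the bo12 arrays, wild-type array 3 above all.

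S100a14, an epithelial member found at cell borders, was read by 2 probes. The brighter one (ILMN_2777308) read 12.13, 12.03 and 12.19 in mutants, against 12.16, 12.18 and 11.68 in wild type. The dimmer one (ILMN_2779858) read 10.43, 10.26 and 10.30 in mutants, against 10.54, 10.49 and 8.55 in wild type. Outside wild-type array 3 the arrays lay close together on either probe, and on that array the dimmer probe was much the further down. The differences were 0.11 (SE 0.22) and 0.47 (SE 0.53), with limma adjusted p = 0.882 and 0.801, and -0.06 and -0.19 without that array. For the dimmer probe the effect within bo12 exceeded that within bo20 by 1.92 (interaction adjusted p = 0.00748), and for the brighter one by 0.61 (0.278). With S100a8 and S100a10 this makes 3 of the 11 S100 probes that differed between prefixes, where 10.1% of all kept probes did.

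S100a16, a widely expressed relative of S100a14, read 9.03, 8.84 and 9.35 in mutants and 9.31, 9.34 and 9.34 in wild type. The wild types were nearly equal, array 3 included, and 2 mutants lay below them and the remaining one just above. The difference was -0.26 (SE 0.21, limma adjusted p = 0.791), 0.837-fold with an interval of 0.589 to 1.19. S100a13, which takes part in the release of leaderless factors such as FGF1, read 8.52, 8.71 and 9.37 in mutants and 9.31, 8.67 and 8.26 in wild type. The ranges of its groups were almost the same. Its difference was 0.12 (SE 0.35, limma adjusted p = 0.918), turning to -0.12 without wild-type array 3, with -0.38 within bo20 and 1.11 within bo12.

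S100a6, or calcyclin, which binds annexins and the calcyclin-binding protein Cacybp, read 9.90, 10.11 and 10.56 in mutants, against 10.62, 10.20 and 10.87 in wild type. Each mutant lay below the wild type of its replicate number, but the groups overlapped. The difference was -0.37 (SE 0.28, limma adjusted p = 0.791), 0.773-fold with an interval of 0.492 to 1.21. It was among the few here that hardly moved with the prefix, at -0.40 within bo20 and -0.31 within bo12.

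S100a4, a binder of non-muscle myosin known from fibroblasts and migrating cells, and S100a3, known from the cuticle cells of hair, were dim. S100a4 read 5.09, 5.52 and 5.03 in mutants, where all 3 arrays detected it, and 5.41, 4.78 and 4.37 in wild type, where array 1 alone did. S100a3 read 4.33, 5.02 and 4.83 in mutants, detected on arrays 2 and 3, and 5.44, 4.60 and 4.44 in wild type, detected on array 1. Wild-type array 1 held the highest value of S100a3 and the next to highest of S100a4, and most values of either gene lay near background, where a change is understated. Their differences were 0.36 (SE 0.31, limma adjusted p = 0.792) and -0.10 (SE 0.33, adjusted p = 0.926).

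**Figure D2:**
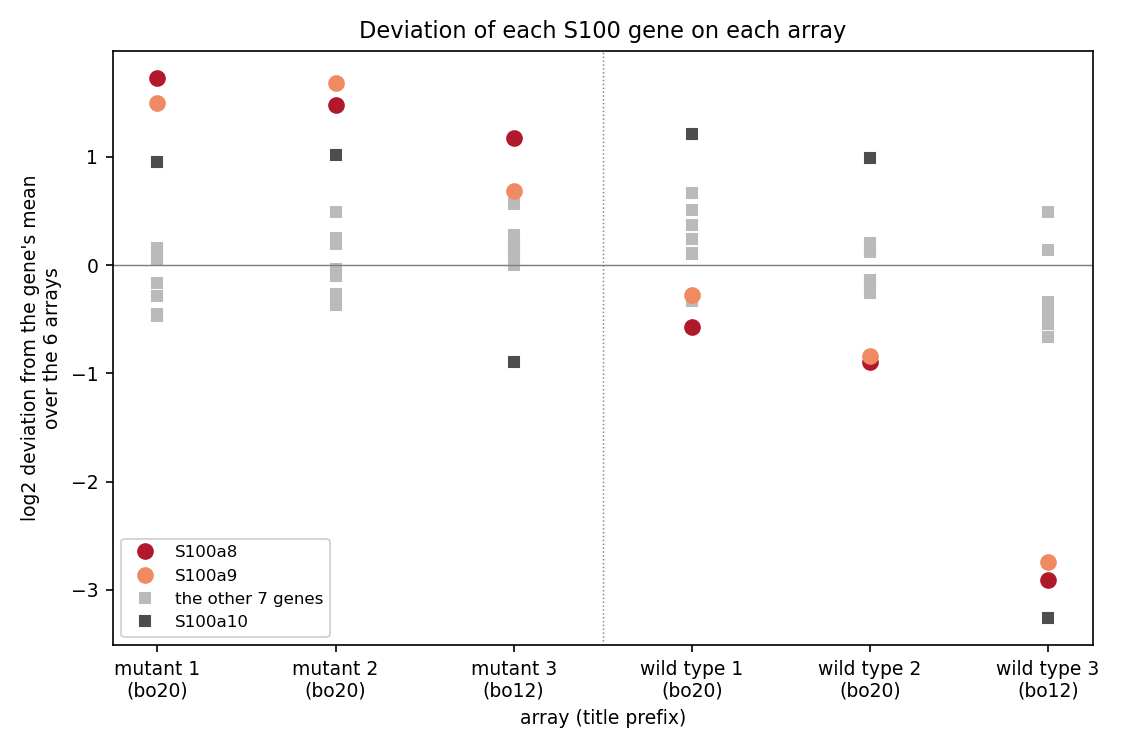
Deviation of each S100 gene from its own mean over the 6 arrays (vertical axis, log2), by array and title prefix, mutants on the left. S100a8 and S100a9 are above 0 on the 3 mutant arrays and below 0 on the 3 wild-type arrays, S100a10 is below 0 on mutant array 3 and wild-type array 3, and the other 7 genes stay between -0.66 and 0.66.

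Set against the other members on the same array, the alarmins averaged a deviation of 1.61, 1.58 and 0.93 on mutant arrays 1 to 3, and of -0.42, -0.87 and -2.82 on wild-type arrays 1 to 3. The median of the other 8 was -0.06, 0.08 and 0.14 on the mutant arrays, and 0.31, -0.01 and -0.44 on the wild-type arrays. The alarmins split by group, while the median of the others stayed nearer 0. S100a10 did not, with deviations of 0.95, 1.01 and -0.89 on the mutant arrays and of 1.21, 0.99 and -3.26 on the wild-type arrays. As log ratios within an array, the 2 alarmins over the 8 others gave 16 pairs. In all 16 the normalized ratio was higher on every mutant array than on every wild-type array, with mean differences of 1.86 to 3.29. The narrowest gap between groups was 0.02, for S100a9 over S100a10. In raw intensity without background correction, where scaling by a factor cannot alter a ratio, 15 were apart, the exception being S100a9 over S100a10. The pairs share their genes and restate the separation of the 2 alarmins, so they are not 16 separate observations. The smaller of the alarmin differences exceeded the largest of the others by 1.86 over all arrays, 1.56 without wild-type array 3, 1.90 within bo20 and 1.05 within bo12. No p is given for these scores, since the members were grouped with their values known.

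**Figure D3:**
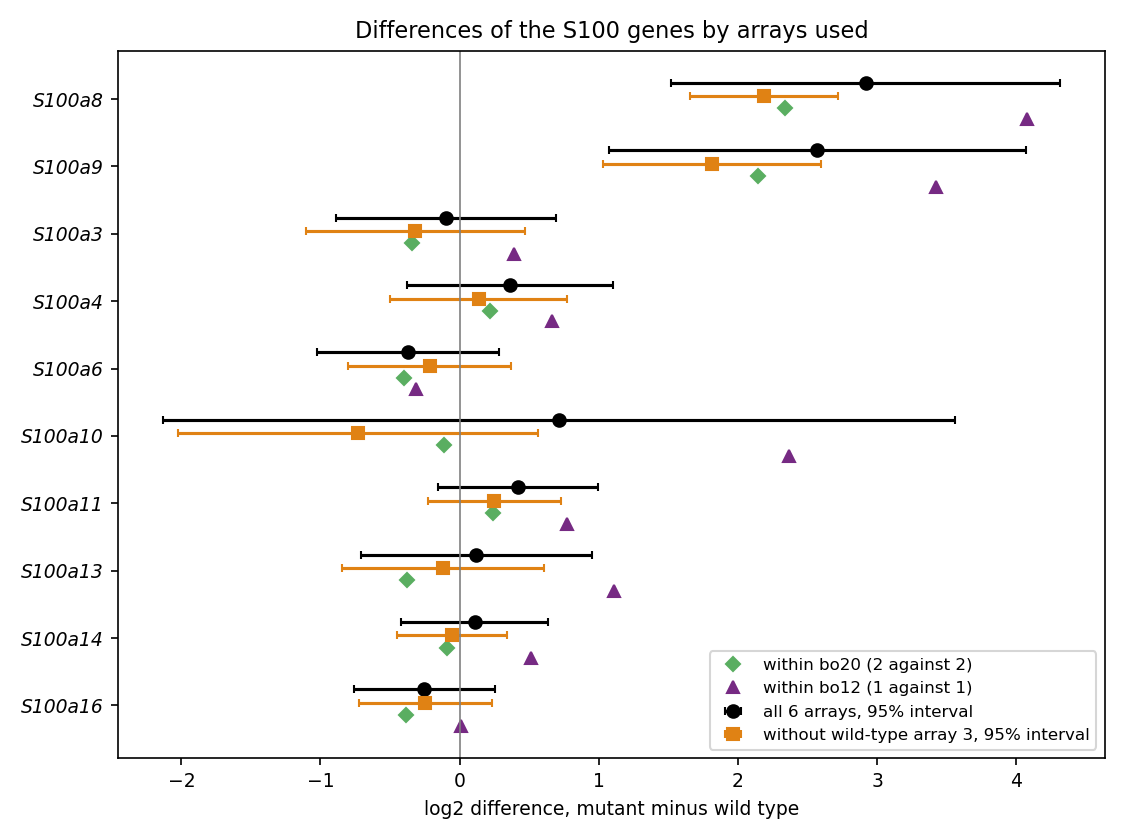
Log2 difference, mutant minus wild type (horizontal axis), of the 10 S100 genes over the 6 arrays and over 5, leaving out wild-type array 3 (with 95% intervals from limma), within bo20 and within bo12 (no intervals). S100a8 and S100a9 lie right of all other genes in each of the 4 sets of arrays, and S100a10 changes sides of 0 between them.

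Other S100 genes on the array gave little signal. S100a1, a member best known from heart and muscle, read 7.37, 7.93 and 8.04 in mutants and 8.15, 7.43 and 8.36 in wild type, with a difference of -0.20 (SE 0.32, limma adjusted p = 0.848). S100a7a, the mouse relative of psoriasin and a neighbour of S100a8, was detected on 1 array, a wild type, and was not tested. S100a5, S100b, which marks Schwann cells and some melanocytes, and S100g were detected on 0 arrays. S100a2, S100a7l2 and S100z had no probe named for them and were not analysed here.

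Along the chromosome, the 10 members lie within a run of 69 protein-coding genes in the RefSeq table, 46 of them with a kept probe. S100a13, S100a14, S100a16, S100a3, S100a4 and S100a6 come first, then S100a8 and S100a9, then the loricrin, small proline-rich, late cornified envelope and filaggrin genes, and last S100a11 and S100a10. Of the 36 kept genes in the run that are no member, 17 were above 0, and the sign was uniform in some gene families but not in others. All kept small proline-rich (Sprr) genes of the run were above 0, from 0.32 (Sprr2a1) to 2.45 (Sprr2e), next to 2.57 for S100a9. Sprr2g, a kept gene not counted in this run, stood at 2.64, above S100a9. All kept late cornified envelope genes named Lce1 were below 0, from -2.97 (Lce1l) to -0.74 (Lce1d). Those named Lce3 lay on both sides. Without wild-type array 3, Sprr2a1 alone of the Sprr and Lce1 genes changed sign (-0.26). None of these genes passed in either fit. Pglyrp4, a peptidoglycan-recognition protein named for its place as the next coding gene after S100a9, differed by 0.38 (SE 0.28, limma adjusted p = 0.791). The nearest tested gene on the far side, S100a6, stood at -0.37, as given.

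The S100-fused proteins carry an S100 domain at the head of a long repeat protein. Of 7 listed 4 were kept, 2 above 0 and 2 below, and 0 passed. Repetin (Rptn) read 11.35, 12.77 and 11.07 in mutants, against 10.20, 9.93 and 7.87 in wild type, and filaggrin-2 (Flg2) read 9.28, 9.59 and 8.19 in mutants, against 10.29, 10.40 and 11.56 in wild type. Neither gene's groups overlapped, and they differed in opposite directions, by 2.40 (SE 0.70, limma adjusted p = 0.596) and -1.73 (SE 0.48, adjusted p = 0.539). Filaggrin (Flg) and hornerin (Hrnr) differed by -0.12 (SE 0.26) and 0.77 (SE 1.12), and Hrnr by -0.66 without wild-type array 3.

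Annexins, the membrane-binding partners of S100a6, S100a10 and S100a11, were all measured with Ahnak, the giant scaffold held by annexin A2 and S100a10: 11 of 11 kept, 6 above 0, 5 below, 0 passed, median 0.15 (0.02 without wild-type array 3). Anxa2 read 14.40, 14.27 and 14.12 in mutants and 14.09, 14.41 and 13.71 in wild type. Its groups overlapped, unlike those of Ahnak, which lay between 12.42 and 12.65 in mutants and between 12.68 and 13.35 in wild type, a difference of -0.42 (SE 0.24, limma adjusted p = 0.791). Anxa3, Anxa4 and Anxa8 differed by 0.52 (SE 0.30), 0.84 (SE 0.59) and 0.27 (SE 0.22). Among other target proteins of S100s 7 of 10 were kept, with 4 above 0, 3 below and 0 passed. Tgm1, the transglutaminase that builds the envelope, differed by -0.41 (SE 0.22), Cacybp by 0.56 (SE 0.34), Iqgap1, a scaffold of the cell cortex, by 1.23 (SE 0.77; 0.25 without wild-type array 3) and Myh9, a non-muscle myosin, by -0.17 (SE 0.29).

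Calprotectin's receptors and their adaptors were kept for 7 of 10 genes, all 7 above 0 (median 0.34), where 44.4% of all kept genes were above 0. Of the 7, 0 passed, as of all kept probes. This list and the others here were chosen with earlier results of these data known, so such shares are a description only. Tlr4, its signalling receptor, read 5.16, 5.18 and 5.01 in mutants, detected on all 3, against 4.86, 4.49 and 4.38 in wild type, detected on 1. The groups were apart, though close to background, with a difference of 0.54 (SE 0.22, limma adjusted p = 0.791). Myd88, the adaptor behind it, Nptn, a receptor of S100a8, and Ly96, the partner of Tlr4, differed by 0.31 (SE 0.21), 0.54 (SE 0.36) and 1.32 (SE 0.81), Ly96 by 0.29 without wild-type array 3. Ager, the receptor for advanced glycation end products, did not pass the filter, and Cd36 and Bsg were detected on 0 arrays.

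Of the phagocyte NADPH oxidase, to which calprotectin delivers arachidonic acid, 4 of 7 listed genes were kept, 3 above 0 and 1 below. Ncf4, a cytosolic subunit, read 6.80, 6.79 and 7.04 in mutants and 5.22, 5.07 and 6.66 in wild type. Here wild-type array 3 was the highest of its group. The difference was 1.22 (SE 0.43, limma adjusted p = 0.756), and 1.80 without that array, where Ncf4 rose past the threshold (adjusted p = 0.0320). Cybb, the catalytic subunit, was detected on 0 arrays, and Cyba, its partner, differed by 0.39 (SE 0.26), Rac2 by 0.08 (SE 0.42) and Rac1 by -0.06 (SE 0.30).

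Cytokines that induce calprotectin in keratinocytes were mostly dim. Of 14 listed 5 were kept, 2 above 0 and 3 below. Il1b, an early inflammatory cytokine, read 5.76, 6.42 and 6.11 in mutants, against 4.89, 4.75 and 4.49 in wild type, where 1 array detected it, a difference of 1.39 (SE 0.25, limma adjusted p = 0.225). Tnf was detected on 3 mutant arrays and 0 wild-type arrays. It was thus kept through the mutant arrays alone, which favours a difference above 0. Its mutant mean was 1.27-fold above the lowest detected level in wild type (limma adjusted p = 0.707). Il1a, a cytokine stored in keratinocytes, went the other way at -1.31 (SE 0.59), and Osm at -0.49 (SE 0.28). Il6, Il17a, Il22, Ifng and Csf2 were detected on 0 arrays.

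Transcription factors known to act on the alarmin genes were kept for 13 of 14 listed, 11 above 0, 2 below and 0 passed (median 0.29). Nfkbiz, an inducible partner of NF-kB, read 8.36, 7.88 and 8.01 in mutants, against 6.44, 6.60 and 5.94 in wild type. The groups lay well apart, and its difference of 1.76 (SE 0.26, limma adjusted p = 0.121) became 1.55 without wild-type array 3, where it rose past the threshold (adjusted p = 0.0476). Bcl3, a further NF-kB partner, Rela, an NF-kB subunit, and Klf4, a barrier factor, differed by 0.79 (SE 0.30), 0.31 (SE 0.21) and 1.47 (SE 1.18), Klf4 by -0.06 without wild-type array 3. Cebpb, a C/EBP factor chosen after its values were seen, differed by 0.11 (SE 0.20).

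Antimicrobial proteins secreted along with calprotectin were kept for 11 of 13 listed, 10 above 0 and 1 below (median 0.73, and 0.72 without wild-type array 3). Saa3, an acute-phase protein, read 7.90, 8.01 and 6.97 in mutants, against 4.94, 5.28 and 5.23 in wild type, where array 3 did not stand out. Its difference was 2.48 (SE 0.32, limma adjusted p = 0.101), and 2.58 without that array, where it rose past the threshold (adjusted p = 0.0463). Slpi, a protease inhibitor of secretions, and Lcn2, an iron-binding lipocalin, differed by 2.26 (SE 0.43) and 1.53 (SE 0.39), with groups apart. Saa1, among the 10 above 0, was detected on 0 wild-type arrays. It was thus kept through the mutant arrays alone, which favours a difference above 0. Its mutant mean was 1.44-fold above the lowest detected level in wild type (limma adjusted p = 0.772).

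**Figure D4:**
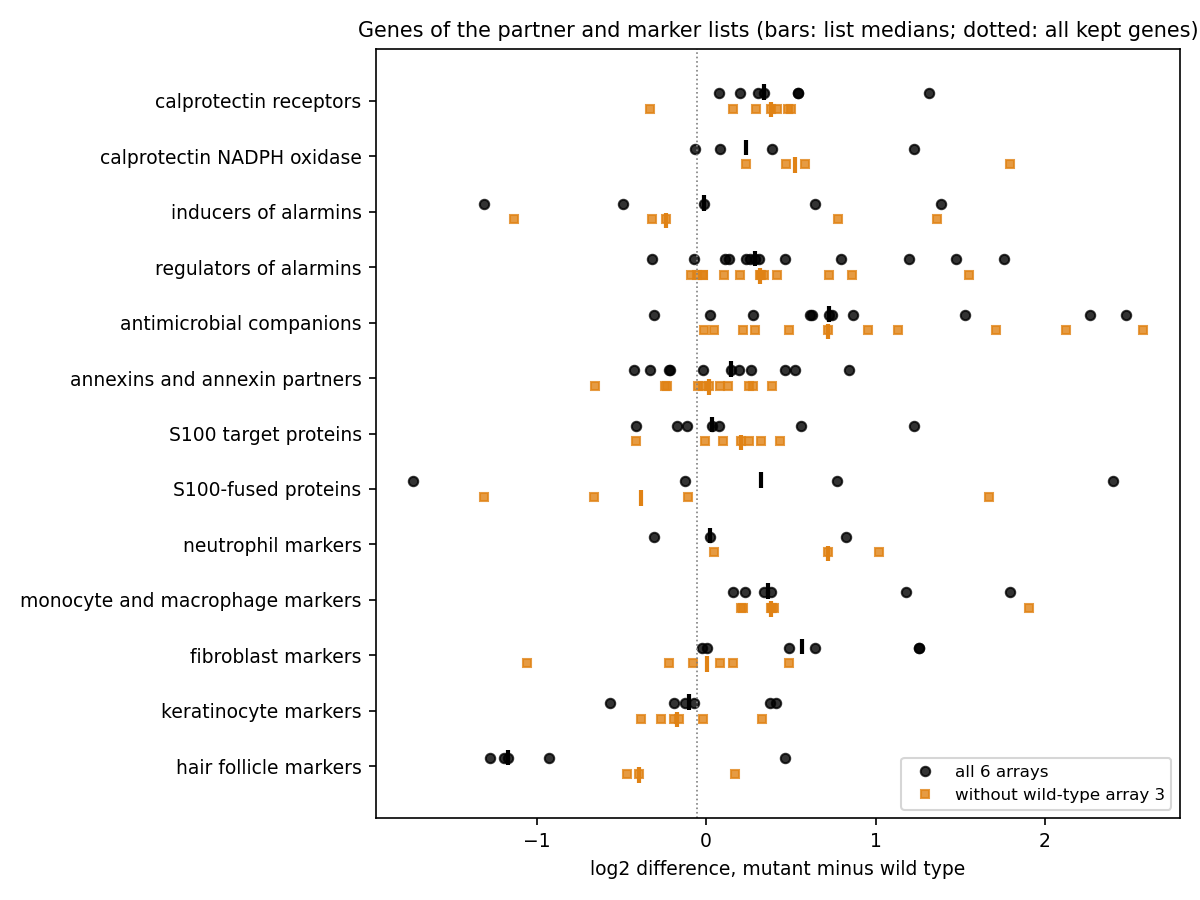
Log2 differences, mutant minus wild type (horizontal axis), of the kept genes of each partner and marker list, over the 6 arrays (black) and over 5, leaving out wild-type array 3 (orange), with bars for list medians and a dotted line for the median of all kept genes (-0.06). The antimicrobial list has 10 of 11 genes above 0 and the receptor list 7 of 7, the lists having been chosen with earlier results of these data known. Saa1 of the antimicrobial list was kept through the mutant arrays alone. The annexins lie on both sides.

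Neutrophils and monocytes are rich in S100a8 and S100a9, and in such peels more cells of a type and more RNA per cell cannot be told apart. Of 10 neutrophil markers 9 were on the array and 3 were kept, Camp, Ltf and Retnlg, whose mean log2 level was 5.32 to 5.85 on mutant arrays and 4.88 to 6.16 on wild-type arrays. The 6.16 was wild-type array 3, and the other wild types, at 5.19 and 4.88, lay below every mutant. The median difference of these 3 genes was 0.03 over the 6 arrays and 0.72 over the 5 left without wild-type array 3, with 0 passing either way. Ngp, Csf3r, Cxcr2 and Mmp8 were detected on 0 arrays, and Mpo and Elane did not pass the filter. Retnlg, a resistin-like granulocyte product, read 5.72, 5.24 and 5.84 in mutants and 4.66, 4.65 and 5.01 in wild type (difference 0.82, SE 0.25, limma adjusted p = 0.619), while Camp and Ltf differed by 0.03 (SE 0.58) and -0.31 (SE 0.33). Without wild-type array 3 the differences were 1.02 for Retnlg, 0.72 for Camp and 0.04 for Ltf. Of 8 monocyte and macrophage markers 6 were kept, all above 0 (median 0.36), with a mean level of 7.80 to 8.18 in mutants and 7.13 to 7.62 in wild type. Lyz2, lysozyme of myeloid cells, differed by 1.79 (SE 0.23, limma adjusted p = 0.101) and rose without wild-type array 3 (1.91, adjusted p = 0.0329), whereas Csf1r and Adgre1, receptors of macrophages, differed by 0.38 (SE 0.29) and 1.18 (SE 0.82), Adgre1 by 0.39 without wild-type array 3. Cd14, the lipopolysaccharide co-receptor, differed by 0.34. Ccr2, the receptor of inflammatory monocytes, was detected on 0 arrays. The part of neutrophil or macrophage RNA in the alarmin values was not tested.

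Markers of the cells in which the other members are known were present as well. The 6 fibroblast genes were detected in every sample, with a mean level of 11.07 to 11.90 in mutants and 9.47 to 11.61 in wild type, although the epidermis had been lifted off the dermis. Their median difference of 0.57 shrank to 0.00 without wild-type array 3, where the differences of S100a4 and S100a6 were 0.14 and -0.22. Pdgfra, a fibroblast receptor, Col1a2, a collagen chain, and Dcn and Col3a1, matrix proteins, differed by 1.26 (SE 0.61), 0.64 (SE 0.49), 1.25 (SE 1.14) and 0.49 (SE 1.46), with a dimmer Col3a1 probe at 1.58 (SE 0.51). Hair follicle genes, beside which S100a3 is read, averaged 5.01 to 6.27 in mutants and 5.40 to 7.44 in wild type. Of 6 listed 5 were kept, 4 below 0 and 1 above, and 0 passed, with a median of -1.17, and of -0.40 over the 3 genes kept without wild-type array 3. Krt27, Krt71, Krt73 and Krt35, keratins of the inner sheath and hair shaft, had differences of -1.28 to -0.93, and each was highest on wild-type array 3. Lef1, a transcription factor of the hair matrix chosen after its values were seen, differed by 0.46 (SE 0.33), and by -0.34 (SE 0.28) on a dimmer probe. The part of these cells in the S100 values was not tested.

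The genes whose pattern was most like that of the alarmins were found by Pearson's r over the 6 arrays, among 2977 kept genes with an SD of at least 0.5, as a description with no test. Closest to S100a8 were Irak3, a brake on Toll-like receptor signalling (0.997), Krt16, a stress keratin (0.989), Gvin1, a large interferon-inducible GTPase (0.988), S100a9 (0.988) and Sla, a Src-like adaptor of blood cells (0.986). Closest to S100a9 were Sla (0.995), Irak3 (0.994), H2-K1, a class I antigen-presenting molecule (0.991), Mpeg1, a pore-forming protein of macrophages (0.988) and S100a8 (0.988). The 6 genes other than the alarmins differed by 0.97 (H2-K1) to 3.84 (Krt16). Their positive direction follows from choosing them by likeness to the alarmins and is no separate result. Without wild-type array 3, Krt16 was the only one of the 6 to rise past the threshold (2.71, limma adjusted p = 0.0231), where 0.185% of 17808 probes rose. Since the 6 were picked on these same arrays, that call is no separate result either. The points of every r share the same 6 arrays.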

How the data were processed

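Total RNA (500 ng) from 3 mutant and 3 wild-type samples was read on Illumina bead arrays, with BeadStudio named in the submitters' processing notes. The deposited raw table holds, per the file headers, each probe's intensity, not normalized, and a fraction per probe that is 1 minus the detection p. The authors' deposited log2 table was recomputed within 0.001 for 100% of values as log2 intensity minus the array's 75th percentile and the probe's median over arrays, and served as an alternative. No array version or genome build is given in these sources.

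Intensities were background-corrected (normexp, offset 16, negative controls inferred from the detection p), quantile-normalized and fitted with limma 3.58.1 in R 4.3.3, after a test on simulated data. The brightest kept probe stood for a gene. Probes were named through GEO's platform annotation, with symbols updated by Entrez ID for 28620 and by accession for 2637 probes. 9497 probes had no name. The number of arrays limits the precision.

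The members and lists were chosen with earlier results of these data known. The genes named are all members, the other S100 genes, the up to 4 genes of a list with the smallest p, those past the threshold, and the 5 most like each alarmin. Deviations of same-numbered samples from their group means correlated at 0.270, 0.462 and 0.538, so the numbers, taken from the labels, were treated as pairs in an alternative fit. The labels do not say what a number marks.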

Additional observations from a re-analysis of the deposited data

Results flagged for a closer look

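For 3 probes the difference between mutant and wild type itself differed between the title prefixes, by limma's interaction test over all kept probes, which 10.1% of kept probes passed. The effect within bo12 minus that within bo20 was 2.48 for S100a10 (probe ILMN_1256702, adjusted p = 0.00220), 1.92 for the dimmer S100a14 probe (ILMN_2779858, adjusted p = 0.00748) and 1.74 for S100a8 (ILMN_2710905, adjusted p = 0.0200). For S100a8 the effects had the same sign, 4.08 within bo12 and 2.34 within bo20. For S100a10 they were 2.37 and -0.12, and for the S100a14 probe 1.75 and -0.17. The bo12 effect rests on 1 array in each group, assumed to vary like the bo20 arrays, and its wild-type array is the one that stood apart, so prefix and array cannot be told apart.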

How the results depend on the processing

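S100a8 and S100a9 kept their direction under all 20 alternatives tried for each. S100a8 passed with array weights (2.33), with the title prefix as a block (2.92) and within bo20 (2.34, added after the data were seen), and was 4.08 within bo12. S100a9 passed with array weights (2.02), the prefix block (2.57) and within bo20 (2.14). Leaving out 1 array at a time gave 2.18 to 3.35 for S100a8 (adjusted p 0.0320 to 0.998) and 1.81 to 3.11 for S100a9 (0.140 to 0.998). Wild-type array 3 was the array whose removal let S100a8 pass. With the replicate block, both alarmins had adjusted p = 0.125, their differences stayed at 2.92 and 2.57, 0 probes passed, and no call changed.

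The number of probes passing was 0 with all arrays, 1 without background correction, 6 with 75th percentile scaling, 6 in the authors' log2 table, 129 with array weights, 48 with the prefix block, 118 within bo20, and 0 to 49 leaving out 1 array.

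Directions turned only among the other members, none of which passed. S100a10 was -0.23 with array weights and -0.12 within bo20, and -0.73 (without wild-type array 3) to 1.51 leaving out 1 array. S100a13 was -0.34 and -0.38 in those fits, and -0.13 (without mutant array 3) to 0.41 leaving out 1 array, with -0.12 without wild-type array 3. S100a14 was -0.051 and -0.093, and -0.055 (without wild-type array 3) to 0.19. S100a11 was -0.0049 with 75th percentile scaling. Median scaling moved the median of all kept genes to 0.43, against -0.06, and gave 0.33 for S100a16, 0.18 for S100a6 and 0.021 for S100a3, all below that shift. S100a16 was 0.027 and S100a4 -0.068 in the authors' table, and S100a3 was -0.32 (without wild-type array 3) to 0.089 (without mutant array 1). The cause of these turns was not tested. Dim probes such as those of S100a3 and S100a4 lie near background, and S100a11 near the top of the range.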

Other observations

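Markers of the remaining cell types in the peels were few. Cd74, the invariant chain, was the only one of 3 Langerhans cell markers kept, with a difference of 0.70 (0.77 without wild-type array 3), while Cd207 and Epcam were detected on 0 arrays. Sox10, the only Schwann cell marker kept of 3 listed, differed by -0.16, turning to 0.14 without wild-type array 3. Melanocyte markers had a median of -0.66 (3 kept, 1 above 0) and keratinocyte markers one of -0.10 (6 kept, 2 above 0), with -0.37 and -0.17 without that array. Endothelial markers had a median of -0.09 (3 kept, 0 above 0), which turned to 0.22 over the 2 genes kept without it. None of these genes passed in limma's fit of all 6 arrays.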
